A study of Sus scrofa with 8 samples.

Results

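Receptors for steroid hormones and for prolactin were followed in whole blood of sows (Sus scrofa), as 5 genes: the nuclear progesterone receptor PGR, the oestrogen receptor ESR1, the glucocorticoid receptor NR3C1, the membrane progesterone receptor component PGRMC1 and the prolactin receptor PRLR. They were found as the probes whose transcript accession in the scanner files belongs to 1 of these genes, which gave 12 of the 43603 probes on the array that are not controls. PGR and PRLR had 1 probe each, NR3C1 and PGRMC1 had 3 each and ESR1 had 4, so that all 5 genes were on the array, among 2389 genes that could be named. At day 14 after insemination, blood was drawn from the submandibular vein in 4 pregnant and 4 non-pregnant sows, all female and of the fifth parity, and each sow's RNA was labelled with Cy3 and put on 1 single-colour Agilent porcine array. The sows were inseminated in both groups, and the labels give neither breed nor hormone levels. The series' design describes 3 pairs of sows that share a parent and 1 unrelated pair, but the labels do not say which sows form a pair.

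Steroid hormones cross the cell membrane and bind receptors inside the cell. ESR1, PGR and NR3C1 are transcription factors that bind DNA once a hormone has bound them, and NR3C1 is held ready for cortisol by HSP90 and its co-chaperones. PGRMC1 is a small haem-binding membrane protein that belongs to another family and has been tied to rapid effects of progesterone. PRLR is a cell surface receptor of the class I cytokine family, which signals through the kinase JAK2 and the transcription factor STAT5. In early pregnancy the corpus luteum keeps progesterone high, and white blood cells are known above all for their glucocorticoid receptor, through which cortisol restrains inflammation.

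Arrays held 61.7% to 69.3% of probes well above background, 0 spots were saturated, and the array's 75th percentile signal, on which each array was scaled, ran from 142 to 297. Pregnant replicate 2 had the lowest of these and stood apart from the other arrays: the lowest Pearson correlation between arrays across probes was 0.870 with it and 0.946 without it. The labelled tissue was checked against marker genes of blood cells: all 8 T cell markers on the array, all 6 of cytotoxic and NK cells, both of B cells, all 4 of monocytes and macrophages, all 7 of neutrophils and all 5 of platelets were well above background on all 8 arrays. Of 2 erythroid markers on the array, EPOR and KLF1, both were too, EPOR at 1 of its 2 probes. Haemoglobin genes were not among the probes that could be named. Of 6 markers of epithelium and the reproductive tract on the array, 5 passed the filter (KRT8, EPCAM, CDH1, UPK1B and SPP1), 4 of them well above background on all arrays, and the oxytocin receptor OXTR did not pass. Each marker was counted at its brightest probe that passed the filter. Of all 2389 named genes 1817 passed it, and 54.4% of all probes were called on all 8 arrays. These counts alone therefore do not set blood apart from other tissues.

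Blood gave a signal for NR3C1 and PGRMC1 at every probe, for ESR1 at 1 of 4 probes on all arrays, and for PGR and PRLR at no probe. "Well above background" is the call the scanner software makes for each spot. By that call 7 of the 12 receptor probes were present on all 8 arrays, 2 on some arrays and 3 on 0 arrays. Over all probes, 54.4% were called on all 8 arrays and 23.2% on 0 arrays. Levels of different probes are not comparable, because each probe binds with its own strength, so the receptors are described by these calls and by differences between sows at the same probe. Values below are log2 of the processed signal relative to the array's 75th percentile.

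**Figure D1:**
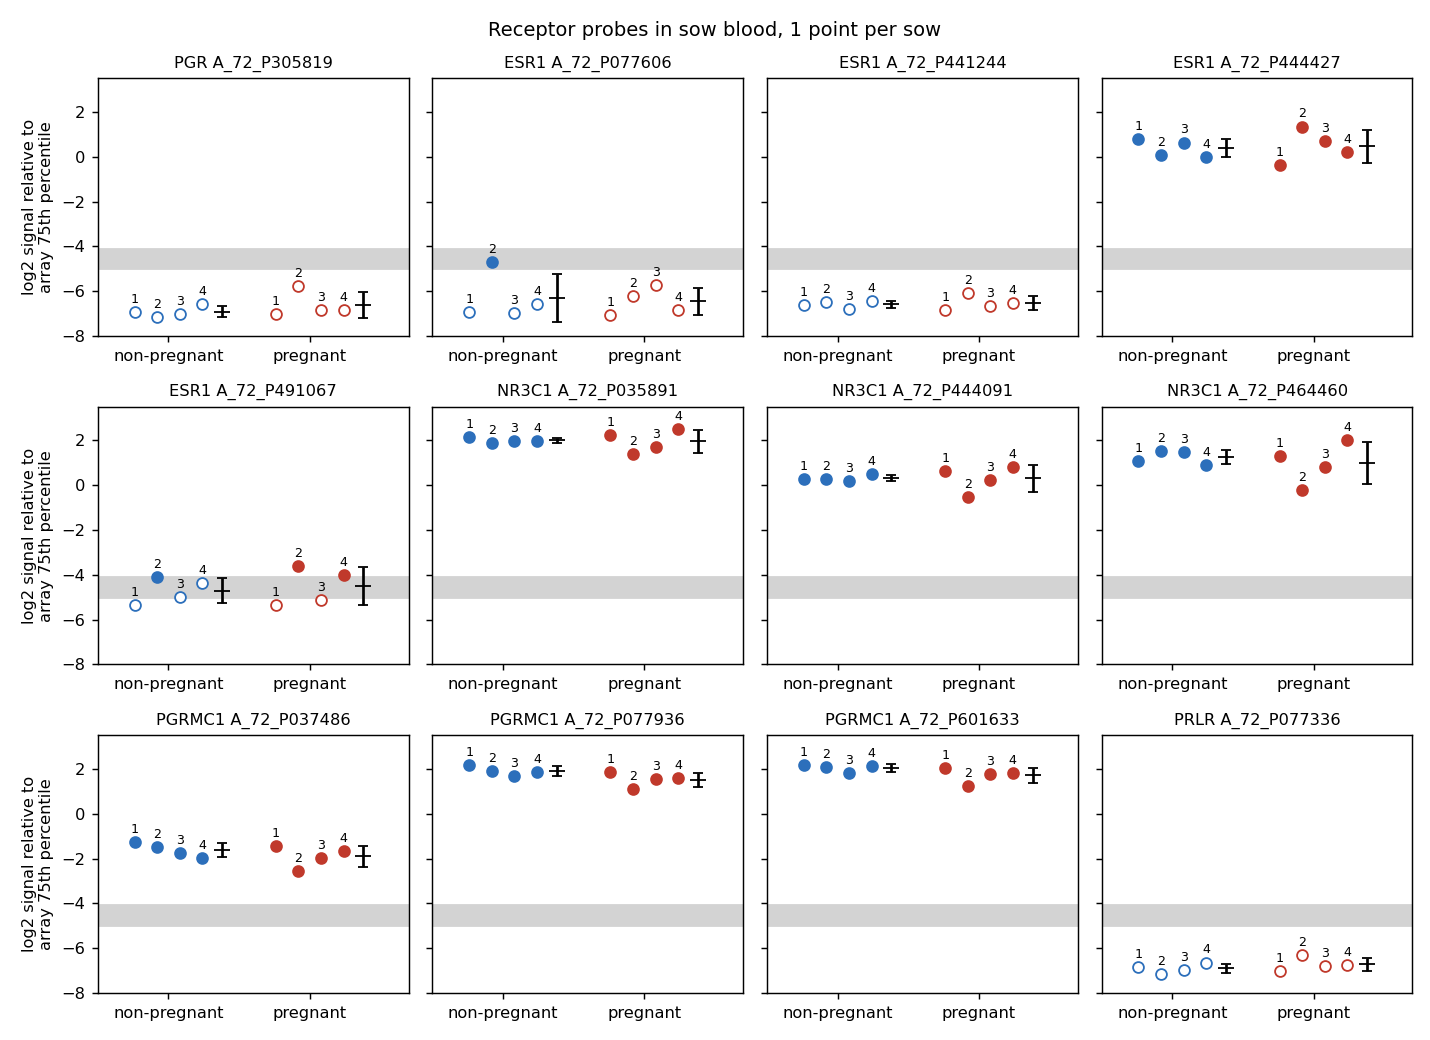
Log2 signal relative to the array's 75th percentile (y axis) for each of the 12 receptor probes in 4 non-pregnant (blue) and 4 pregnant sows (red), with the replicate number above each point. Filled points are well above background, open points are not, black bars are the mean and SD (n = 4), and the grey band spans the lowest signal called well above background on the 8 arrays. All NR3C1 and PGRMC1 points are filled and all PGR and PRLR points are open.

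PGR (probe A_72_P305819, transcript NM_001166488) was not well above background in any sow. Its value was -6.94, -7.16, -7.00 and -6.59 in non-pregnant replicates 1 to 4 and -7.02, -5.75, -6.83 and -6.82 in pregnant replicates 1 to 4. Pregnant replicate 2 was the highest and the other 7 arrays lay close together. In linear units the processed signal was 1.68 to 2.64, where the lowest signal called well above background was 7.59 to 10.9 depending on the array, so the group difference has no measured size. These data therefore only place the PGR transcript in blood below what this probe can detect, in both groups.

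PRLR (A_72_P077336, NM_001001868) was likewise not detected. Its value ran from -7.17 to -6.64 in non-pregnant and from -7.02 to -6.31 in pregnant sows, with a processed signal of 1.72 to 2.30. The ranges of the groups overlapped, and the probe was well above background on 0 arrays.

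ESR1 (NM_214220) gave a split picture across its 4 probes. A_72_P444427 was well above background in all 8 sows, at 0.81, 0.09, 0.64 and 0.00 in non-pregnant replicates 1 to 4 and at -0.38, 1.35, 0.70 and 0.22 in pregnant replicates 1 to 4. Both the lowest value (pregnant replicate 1) and the highest (pregnant replicate 2) belonged to pregnant sows, so the groups overlapped. A_72_P441244 was on no array well above background, with values from -6.85 to -6.10. A_72_P077606 was so on 1 array only, non-pregnant replicate 2, at -4.71, with the other 7 values between -7.04 and -5.72. A_72_P491067 lay at the edge of detection: it was called in non-pregnant replicate 2 (-4.11) and in pregnant replicates 2 (-3.59) and 4 (-4.01), and the other 5 values ran from -5.36 to -4.37. The files pair all 4 probes with the same transcript. Which part of it each probe binds was not analysed here. Detection of ESR1 in all 8 sows therefore rests on A_72_P444427 alone.

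NR3C1 (NM_001008481) was well above background in all 8 sows at all 3 probes. A_72_P035891 was at 2.16, 1.89, 1.98 and 1.99 in non-pregnant replicates 1 to 4 and at 2.26, 1.38, 1.72 and 2.49 in pregnant replicates 1 to 4. Non-pregnant sows lay within a narrow band, and the pregnant sows lay on both sides of it: replicates 1 and 4 above all non-pregnant values and replicates 2 and 3 below them. A_72_P444091 was at 0.29, 0.27, 0.20 and 0.50 in non-pregnant and 0.65, -0.51, 0.25 and 0.83 in pregnant sows. A_72_P464460 was at 1.09, 1.54, 1.48 and 0.93 in non-pregnant and at 1.32, -0.20, 0.83 and 2.02 in pregnant sows. At each of the 3 probes pregnant replicate 2 was the lowest and pregnant replicate 4 the highest of all 8 arrays.

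The spread of NR3C1 within the pregnant group was wider than within the non-pregnant group at each probe, and so it was for PGRMC1 and ESR1 A_72_P444427. The SD was 0.51 against 0.11 at A_72_P035891, 0.59 against 0.13 at A_72_P444091 and 0.93 against 0.30 at A_72_P464460 (n = 4 each). Without pregnant replicate 2 the pregnant SD was 0.39, 0.30 and 0.60 (n = 3). At PGRMC1 A_72_P037486, A_72_P077936 and A_72_P601633 the SD was 0.48 against 0.30, 0.31 against 0.21 and 0.33 against 0.16. ESR1 A_72_P444427 had 0.74 against 0.40. Without pregnant replicate 2 these pregnant SDs were 0.26, 0.17, 0.14 and 0.54 (n = 3). The difference in spread was not tested, and how many of all probes shared it was not counted. A_72_P035891 and A_72_P444091 followed each other closely across arrays, with a root mean square difference of 0.15 once each was centred on its own mean over the 8 arrays. A_72_P464460 differed from them by 0.38 and 0.36 and varied more from sow to sow.

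NR3C1 did not differ between pregnant and non-pregnant sows beyond the spread between sows. The mean of A_72_P035891 was 1.96 ± 0.51 in pregnant and 2.00 ± 0.11 in non-pregnant sows (SD, n = 4 each), a ratio of 0.971 (95% interval 0.623 to 1.51, limma adjusted p = 1.00). The ratio was 0.990 (0.610 to 1.60) at A_72_P444091 and 0.831 (0.425 to 1.62) at A_72_P464460, each with a limma adjusted p of 1.00. The sign was not stable when single sows were left out. Without pregnant replicate 2 the log2 fold changes, pregnant minus non-pregnant, were 0.15, 0.26 and 0.13 at these 3 probes in place of -0.04, -0.01 and -0.27. At A_72_P464460 this was the only sow whose removal turned the sign. Leaving out pregnant replicate 3 also turned the sign at A_72_P035891 (0.037) and A_72_P444091 (0.0037). So did leaving out non-pregnant replicate 1 at the former (0.0084) and non-pregnant replicate 4 at the latter (0.047). Normexp background correction turned it at all 3 probes (0.49, 0.051 and 0.044 at A_72_P035891, A_72_P444091 and A_72_P464460). The intervals leave room for a difference of up to about the bounds given, in either direction.

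PGRMC1 (NM_213911) was well above background in all 8 sows at all 3 probes. A_72_P601633 was at 2.17, 2.08, 1.80 and 2.12 in non-pregnant replicates 1 to 4 and at 2.03, 1.26, 1.77 and 1.81 in pregnant replicates 1 to 4. Pregnant replicates 2 and 3 lay below all non-pregnant sows, and replicates 1 and 4 within their range. A_72_P077936 was at 2.18, 1.90, 1.67 and 1.89 in non-pregnant and at 1.85, 1.09, 1.54 and 1.59 in pregnant sows. Here 3 of 4 pregnant values lay below all non-pregnant values. A_72_P037486 was at -1.27, -1.49, -1.75 and -1.97 in non-pregnant and at -1.44, -2.54, -1.96 and -1.67 in pregnant sows, and only pregnant replicate 2 lay outside the non-pregnant range. Non-pregnant replicate 1 was the highest and pregnant replicate 2 the lowest array at each of the 3 probes.

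PGRMC1 had a lower mean in pregnant sows at all 3 probes on the scale used here, but no difference passed the test. Normexp background correction without a cap turned the sign at A_72_P077936 and A_72_P601633. It moved the log2 fold change to 0.22 at A_72_P077936 and 0.25 at A_72_P601633, and to -0.53 at A_72_P037486. After it the array medians ran from 96 to 890, against 81 to 97 with the background capped. With that cap the log2 fold change was negative at all 3 probes (-0.37 at A_72_P077936, -0.29 at A_72_P601633 and -0.068 at A_72_P037486). At A_72_P077936 the mean was 1.51 ± 0.31 in pregnant and 1.91 ± 0.21 in non-pregnant sows (SD, n = 4 each), a ratio of 0.761 (95% interval 0.516 to 1.12, limma unadjusted p = 0.150, adjusted p = 1.00). At A_72_P601633 the ratio was 0.797 (0.543 to 1.17, limma unadjusted p = 0.218) and at A_72_P037486 it was 0.825 (0.518 to 1.31, limma unadjusted p = 0.378), both with an adjusted p of 1.00. The 3 probes measure the same RNA of the same sows and are not separate evidence. Their size leaned on pregnant replicate 2: without it the log2 fold changes were -0.25, -0.17 and -0.06 in place of -0.39, -0.33 and -0.28. They were negative on both slides, at -0.23, -0.09 and -0.18 on slide 1 and -0.55, -0.57 and -0.37 on slide 2, where 2 arrays of each group lay on each slide. A_72_P077936 and A_72_P601633 agreed closely across arrays, with a root mean square difference of 0.076 after centring.

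ESR1 at A_72_P444427 had a mean of 0.47 ± 0.74 in the pregnant group and 0.39 ± 0.40 in the other (SD, n = 4 each). The ratio was 1.06, with the interval 0.586 to 1.93 (limma adjusted p = 1.00). The difference had opposite signs on the slides, with a log2 fold change of -0.56 on slide 1 and 0.74 on slide 2. In place of 0.09 it was -0.21 without pregnant replicate 2. Leaving out a non-pregnant sow turned the sign too for replicate 2 (-0.0099) and replicate 4 (-0.040).

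**Figure D2:**
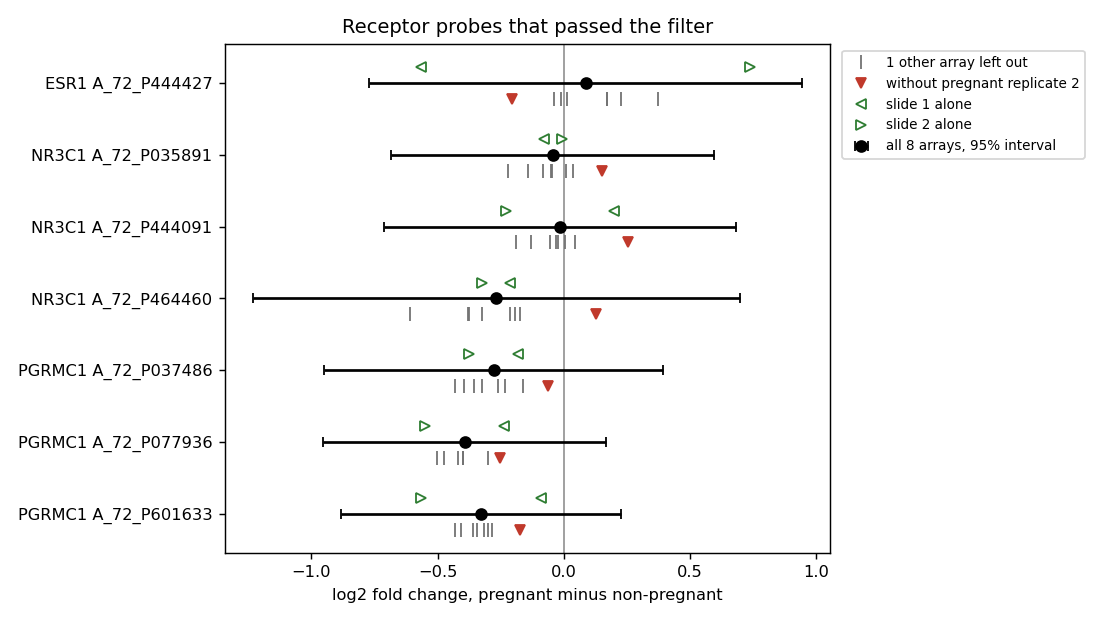
Log2 fold change, pregnant minus non-pregnant (x axis), of the 7 receptor probes that passed the filter. Black points and bars are the values over all 8 arrays with 95% intervals, grey ticks and red triangles below them leave out 1 array each, and green triangles above them are each slide alone. Every interval includes 0, and without pregnant replicate 2 all 3 NR3C1 probes lie above 0.

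Of the 7 receptor probes tested, 0 passed the limma threshold (adjusted p under 0.05), 0 had an unadjusted p under 0.05 and 0 had groups that did not overlap. Over all 26480 probes tested, limma called 0% higher and 0% lower at the adjusted threshold. The share with an unadjusted p under 0.05 was 2.28%, and groups did not overlap in 0.895% of probes with pregnant sows higher and in 0.687% with pregnant sows lower. A negative log2 fold change was found in 6 of the 7 receptor probes and in 56.7% of all probes tested. Those 6 belong to NR3C1 and PGRMC1 only, and probes of the same gene are not separate evidence. The smallest unadjusted p of a receptor probe was 0.150. A p above the threshold does not show that the groups were alike: the intervals of the 7 probes reach down to a ratio of 0.425 and up to 1.93.

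The array that stood apart held an extreme value at all 7 receptor probes tested. Pregnant replicate 2 was the lowest of the 8 arrays at 6 of the 7 receptor probes tested and the highest at the seventh, ESR1 A_72_P444427. The 6 are the NR3C1 and PGRMC1 probes, and probes of the same gene are not separate evidence. Over all probes tested pregnant replicate 2 was the lowest in 37.9% and the highest in 21.8%. On this array the mean of the T cell markers, centred on the 8 arrays, was -0.58 (other arrays -0.12 to 0.26), that of the erythroid markers was 0.98 (-0.68 to 0.50) and that of the epithelial and reproductive tract markers 1.32 (-0.53 to 0.26). Between the groups, the monocyte and macrophage markers (CD14, CD163, LYZ and TLR4) had a mean of 0.16 to 0.40 in pregnant and -0.43 to -0.12 in non-pregnant sows, without overlap. The values of CD163 taken singly did overlap, and so did the means of every other marker list. The T cell markers had a mean of -0.58 to 0.10 in pregnant and -0.0017 to 0.26 in non-pregnant sows. The log2 fold change was positive in all 4 monocyte and macrophage markers and all 5 epithelial markers, and negative in all 8 T cell and all 6 cytotoxic and NK cell markers, and limma called 0 of them. Over all named genes 55.9% had a negative log2 fold change. Markers of the same list were measured in the same sows and are not separate evidence. The epithelial list mean was high in pregnant replicate 2 alone. It was -0.53, -0.20 and 0.14 in pregnant replicates 1, 3 and 4, against -0.48 to 0.26 in non-pregnant sows. The part of these cell types in the receptor values was not tested. In blood RNA, fewer cells of a type and less RNA per cell cannot be told apart.

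**Figure D3:**
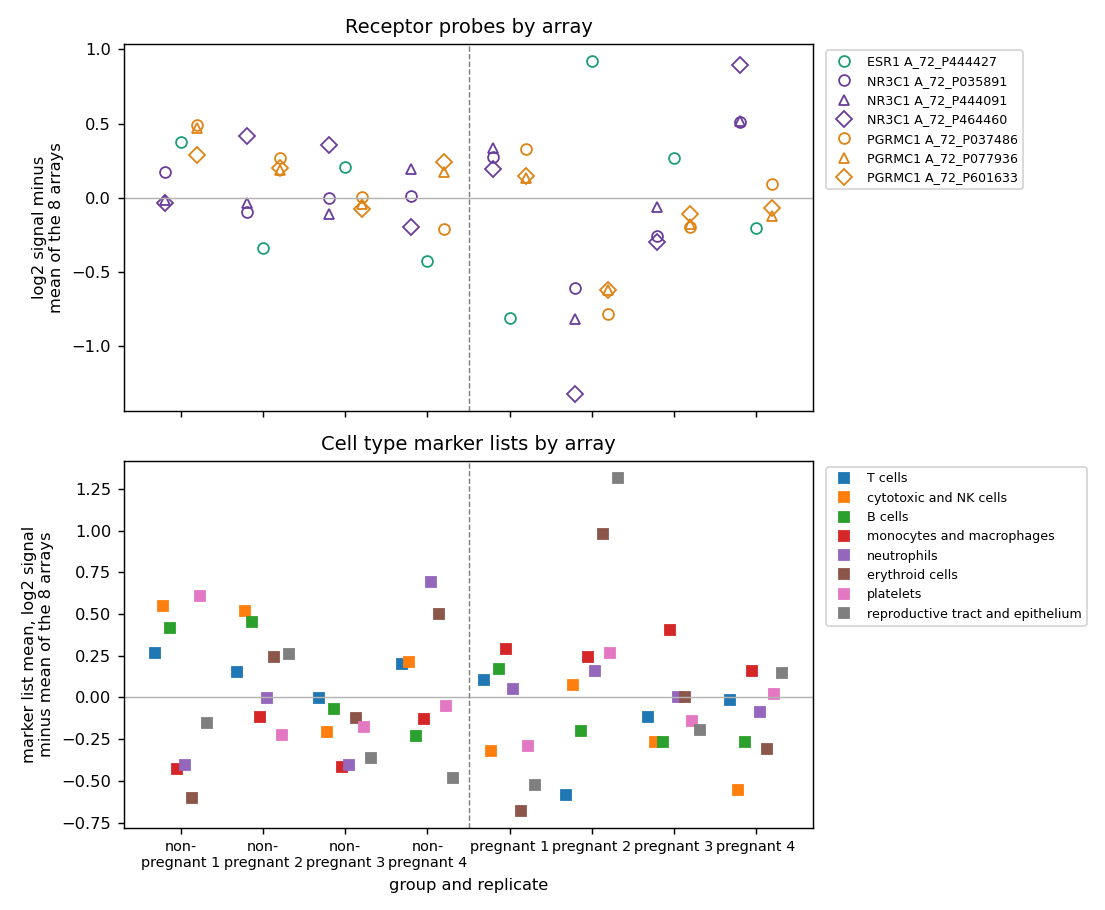
Top: log2 signal of the 7 receptor probes that passed the filter, minus the probe's mean over the 8 arrays (y axis), by array (x axis). Bottom: the mean of each cell type marker list on the same scale. Pregnant replicate 2 holds the lowest NR3C1 and PGRMC1 points and the highest ESR1 point, along with the lowest T cell value (-0.58) and the highest erythroid value (0.98).

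The receptors varied from sow to sow about as much as other probes, 5 of the 7 probes tested less than the median probe and 2 more. Over the 8 arrays the SD was 0.30 at PGRMC1 A_72_P601633, 0.33 at A_72_P077936 and 0.40 at A_72_P037486, and 0.34, 0.40 and 0.66 at the NR3C1 probes A_72_P035891, A_72_P444091 and A_72_P464460. ESR1 A_72_P444427 had 0.55. The median SD over all probes tested was 0.45. For each receptor the genes with the most similar profile were sought among the named genes that varied at least as much as the receptor's brightest probe, by the root mean square difference of centred values over the 8 arrays. For NR3C1 A_72_P035891 these were HSPBAP1, HNRNPA1 and TFAM, at 0.11, 0.12 and 0.12, where the median of 1233 candidates was 0.59. For PGRMC1 A_72_P601633 they were GNPAT, SETD3 and APPL1, at 0.10 each, with a median of 0.49 over 1461 candidates. For ESR1 A_72_P444427 they were CFL2, WFDC2 and TEAD1, at 0.31, 0.32 and 0.34, with a median of 0.79 over 558 candidates. These genes were picked as the smallest differences among their candidates, so lying below the median was fixed in advance. Whether the likeness goes beyond the shift that many probes share on pregnant replicate 2 was not tested.

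Other nuclear receptors were detected in part. Of 40 genes listed, 18 were on the array and 11 passed the filter, among them the vitamin D receptor VDR, the thyroid hormone receptor THRA, the retinoid X receptor RXRB, the fatty acid sensors PPARD and PPARG and the oxysterol receptor NR1H3. The second oestrogen receptor, ESR2, was well above background on 0 arrays at its single probe, as were PPARA, NR2F2 and NR0B1. Limma called 0 of the 11 higher and 0 lower, where it called 0% of the 1817 named genes in either direction. The log2 fold change was positive in 7 and negative in 4, with a median of 0.040, and over all named genes 55.9% were negative, with a median of -0.036. The 4 include NR4A3, which passed the filter only through the non-pregnant group. RXRB had a ratio of 0.787, but its other 2 probes had log2 fold changes of -0.10 and 0.07. NR4A3, an orphan receptor, was well above background in 4 of 4 non-pregnant sows and 1 of 4 pregnant sows. It passed the filter through the non-pregnant group alone, so no ratio is given. NR1I2, the pregnane X receptor, had a ratio of 1.87 with an interval of -2.20 to 4.00 on the log2 scale and a log2 fold change of -0.28 without pregnant replicate 2 in place of 0.90. Only 1 of its 3 probes, the one used here, was well above background on all 8 arrays.

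Membrane receptors of progesterone were all detected where the array held them. PGRMC2, the close relative of PGRMC1, was well above background on all arrays at all 4 of its probes, PAQR7 at its single probe and PAQR8 at both of its probes. PAQR7, the membrane progesterone receptor alpha, was at -2.26, -1.91, -2.07 and -2.19 in non-pregnant replicates 1 to 4 and at -2.33, -2.63, -2.46 and -2.34 in pregnant replicates 1 to 4. All 4 pregnant values lay below all 4 non-pregnant values, although the nearest values differed little. The ratio was 0.795, with a log2 fold change of -0.33 (95% interval -0.82 to 0.16, limma unadjusted p = 0.16, adjusted p = 1.00), and it did not pass the test. With 1 array left out it ranged from -0.38 to -0.27, and it was -0.23 on slide 1 and -0.43 on slide 2. Among the named genes, groups did not overlap in 0.771% with pregnant sows lower and in 0.715% with pregnant sows higher. PAQR8, the membrane progesterone receptor beta, had a ratio of 0.917, and its log2 fold change of -0.12 turned to 0.057 when pregnant replicate 2 was left out and to 0.069 when non-pregnant replicate 4 was. The other PAQR8 probe had a log2 fold change of 0.095. PGRMC2 had a ratio of 0.975, with a log2 fold change of -0.04 that turned to 0.026 or 0.0044 when pregnant replicate 2 or 3 was left out, and to 0.062 when non-pregnant replicate 1 was. Its other 3 probes ran from -0.19 to 0.04. Limma called 0 of the 3 genes.

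Chaperones and coregulators of the nuclear receptors were measured for 6 of 20 and 5 of 20 genes, and limma called 0 in each list. The median log2 fold change was -0.068 for the chaperones and 0.037 for the coregulators. PTGES3, the HSP90 co-chaperone p23 that stabilises steroid receptors, had a ratio of 0.689 (log2 fold change -0.54, 95% interval -1.19 to 0.12, limma adjusted p = 1.00), with 3 of 4 pregnant values below all non-pregnant ones, and at -0.32 without pregnant replicate 2. The ratio was 1.26 for HSP90B1, the HSP90 of the endoplasmic reticulum, and 1.16 for CDC37, the co-chaperone of kinases. Among the coregulators it was 1.33 for PPARGC1A, 0.879 for NCOA3 and 0.920 for NCOA1, whose log2 fold change of -0.12 was 0.067 without pregnant replicate 2. The PPARGC1A log2 fold change of 0.41 was 0.0047 without pregnant replicate 4.

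Some genes of the pathway below the prolactin receptor were detected in blood, but most of those listed were not measured. Of 25 genes listed, 10 were on the array and 9 passed the filter, where 1817 of the 2389 genes named on the array passed it. Among the 9 were the kinase JAK2, the transcription factors STAT3, STAT5A and STAT5B, the feedback inhibitors SOCS2 and SOCS3, the adaptor GRB2 and the kinase FYN. The hormone gene PRL did not pass. Limma called 0 of the 9, and the median log2 fold change was 0.037. JAK2 had a ratio of 1.03 and STAT5A 1.00, both named for their place in the pathway after their values were seen. STAT5B had a ratio of 1.17, and its other probe a log2 fold change of 0.023. FYN had a ratio of 0.931, with a log2 fold change of -0.10 that was 0.14 without pregnant replicate 2. Among relatives of PRLR in the class I cytokine receptor family, 7 of 12 listed genes were on the array. The growth hormone receptor GHR and the leptin receptor LEPR were well above background on 0 arrays, while the erythropoietin receptor EPOR, the interleukin 6 receptor chains IL6R and IL6ST, the interleukin 7 receptor IL7R and the shared chain IL2RG passed the filter. Limma called 0 of these 5, with ratios of 1.16 for EPOR, 1.12 for IL2RG and 0.879 for IL7R. EPOR was well above background on all 8 arrays at 1 of its 2 probes.

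Genes known to respond to glucocorticoids, oestrogen or progesterone were not called either. Of 26 glucocorticoid-responsive genes listed, 12 were measured and limma called 0. The median log2 fold change was 0.027, with 7 genes above 0 and 5 below, and 1 gene had an unadjusted p under 0.05, against 2.09% of all named genes. GADD45A, a stress response gene, had a ratio of 1.55, CD163, the haemoglobin scavenger receptor of macrophages, 1.56, and the metallothionein MT1A 1.47, each with a limma adjusted p of 1.00. CD163 is also 1 of the monocyte markers, whose list mean lay higher in pregnant sows. Its own values overlapped, at 2.29 to 2.83 in pregnant and 1.11 to 3.11 in non-pregnant sows. Its log2 fold change of 0.64 (95% interval -0.25 to 1.53) was 1.18 on slide 1 and 0.11 on slide 2. Its other 3 probes had 0.52 to 0.59. Of 20 oestrogen- and progesterone-responsive genes, 4 were measured and limma called 0. MYC had a ratio of 0.747 (log2 fold change -0.42, 95% interval -0.94 to 0.10), with pregnant values of 1.71 to 2.10 just below non-pregnant values of 2.10 to 2.57, and its other 2 probes had -0.25 and -0.22. SPP1, osteopontin, had a ratio of 1.42 with opposite signs on the slides (log2 fold change -0.84 and 1.85), and UPK1B, a uroplakin, 1.36.

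Enzymes that make or convert steroids were measured for 11 of 24 genes listed, 8 with a positive and 3 with a negative log2 fold change (median 0.16), and limma called 0. The 8 include HSD17B1 and CYP21A2, which passed the filter only through the pregnant group. HSD11B1, which regenerates active cortisol inside cells, was at -2.34, -0.82, -2.61 and -2.31 in non-pregnant replicates 1 to 4 and at -2.25, -3.01, -2.83 and -2.59 in pregnant replicates 1 to 4. The ratio was 0.637 (log2 fold change -0.65, 95% interval -1.54 to 0.24), and it leaned on non-pregnant replicate 2, the highest sow, without which the log2 fold change was -0.25. The log2 fold change was -0.06 on slide 1 and -1.24 on slide 2, and the other 2 HSD11B1 probes had -0.45 and -0.42. HSD17B1, which makes oestradiol, was well above background in 4 of 4 pregnant and 2 of 4 non-pregnant sows. It passed the filter through the pregnant group alone, so no ratio is given. CYP21A2, an enzyme of cortisol synthesis in the adrenal, was well above background in 4 of 4 pregnant and 3 of 4 non-pregnant sows, and so it too passed the filter through the pregnant group alone. Its log2 fold change of 2.06 (limma adjusted p = 1.00) is therefore not read as a size, and no ratio is given. It was 0.46 on slide 1, 3.66 on slide 2 and 1.33 without pregnant replicate 2. It was 0.92 under normexp background correction with capped background and -0.12 without the cap. Of the 26 genes named from these lists, groups did not overlap in 1 with pregnant sows higher, CYP21A2, and in 2 with pregnant sows lower, PAQR7 and MYC. Over all 1817 named genes these shares were 0.715% and 0.771%. The 26 genes were picked for the smallest unadjusted p in their lists, which favours groups that do not overlap, so nothing is read from this count.

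**Figure D4:**
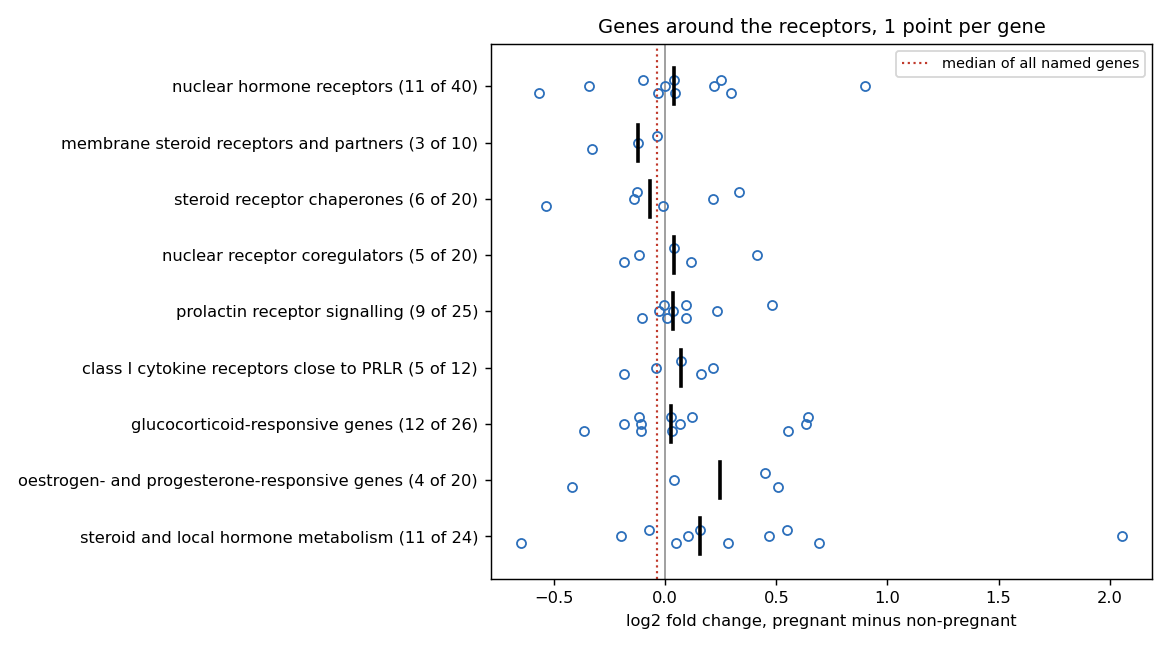
Log2 fold change, pregnant minus non-pregnant (x axis), of each measured gene in 9 lists around the receptors, with measured and listed gene numbers in brackets. Open points are genes, black bars list medians, and the dotted line the median of all named genes (-0.036). The medians run from -0.12 to 0.24. The point farthest right is CYP21A2 (2.06), which passed the filter through the pregnant group alone.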

How the data were processed

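Per the file headers, the authors deposited 1 Agilent Feature Extraction file per array (version 10.7 per the submitters' processing notes). The processed signal is a background-subtracted spot intensity, deposited with no normalization between arrays. The deposited log2 table was an alternative, and no source used here gives its normalization: each column matched its own array best (Pearson r of 0.99895 or higher across probes), all had a median of 5.03, and higher meant brighter. How it was centred stays unknown.

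Control spots and spots marked as outliers were left out, which dropped 215 of 43603 probes. Signals were put on the log2 scale relative to the array's 75th percentile. A probe was kept if every array of either group called it well above background (26480, or 60.7%). Pregnant and non-pregnant sows were compared with limma 3.58.1 in R 4.3.3 (lmFit, eBayes, two-sided, Benjamini-Hochberg over all probes kept, threshold 0.05), without covariates, and the script was tested on simulated data. Plots used matplotlib 3.10.9. Names came from RefSeq transcripts of the Sscrofa11.1 table: 5461 probes matched 2389 genes. Other probes stayed unnamed, and no probe sequence was used here. In the lists a gene is its brightest kept probe. Named genes are all receptor probes, the 3 genes of smallest unadjusted p in each list, and the 3 most similar profiles; 1 gene of a list is not reported here. The receptors, lists and tests were chosen with earlier results of these data known. The number of arrays limits precision (median 95% half-width 0.67 on the log2 scale). Differences between sows, samplings and arrays enter the spread together, with 1 array per sow.

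Alternatives were quantile and median scaling, the percentile over detected probes, normexp, other filters, array weights, blocks for slide or replicate number, single slides, the deposited table and each array left out.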

Additional observations from a re-analysis of the deposited data

Results flagged for a closer look

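In 76 groups of 4 sows (12 receptor probes and 26 list genes, 2 groups each), 4 had a sow so far from the other 3 that the gap passed Dixon's 95% limit for the gap as a share of the group's range. Chance flags about 1 group in 20. PGR A_72_P305819 in pregnant replicate 2 was at -5.75 against -7.02 to -6.82 in the other pregnant sows, a gap of 0.841 of the range, and was not well above background there. Its processed signal before scaling was 2.64, against 2.29, 2.05 and 1.98 in pregnant replicates 1, 3 and 4. The 75th percentile used for scaling was 142 on that array and 223 to 297 on those 3. The unscaled gap was not tested. PAQR8 in pregnant replicate 2 was at 0.25 against 0.95 to 1.02 (0.907). IL2RG in non-pregnant replicate 4 was at 0.12 against -0.20 to -0.19 (0.949). HSD11B1 in non-pregnant replicate 2 was at -0.82 against -2.61 to -2.31 (0.830).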

How the results depend on the processing

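With 8 arrays only wide differences could pass, and dim probes have no measured size. Limma called 0 probes in the main setting and in each of the 21 alternatives (605 had an unadjusted p under 0.05 in the main setting). The replicate block left every log2 fold change as it was, called 0 probes and put 795 at an unadjusted p under 0.05. The labels do not say that the number marks a pair. Deviations of same-numbered sows correlated at 0.22, 0.48, 0.43 and -0.12 for numbers 1 to 4, and 2 of the 4 numbers matched their own number best.

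Normexp, as planned, moved the median of all probes to -0.20 and turned the sign of several log2 fold changes. It gave NR3C1 0.49, 0.051 and 0.044 at A_72_P035891, A_72_P444091 and A_72_P464460. PGRMC1 was at 0.22 (A_72_P077936) and 0.25 (A_72_P601633), RXRB at 0.018, PAQR8 at 0.27, PGRMC2 at 0.66, NCOA1 at 0.56, FYN at 0.15, IL7R at 0.36 and MYC at 0.27. CDC37 was at -0.067, PPARGC1A at -0.80, EPOR at -0.74, MT1A at -0.61, UPK1B at -0.84, SPP1 at -0.46, CYP21A2 at -0.12 and HSD17B1 at -0.83. List medians became 0.27 for membrane receptors, 0.21 for coregulators, 0.70 for glucocorticoid-responsive and -0.095 for oestrogen- and progesterone-responsive genes. A few spots had local backgrounds of up to 62151, and the array medians after normexp ran from 96 to 890. With the background capped at 2 array medians, an alternative chosen after seeing the data, they ran from 81 to 97 and only NR3C1 turned among the receptors (0.0054 at A_72_P035891 and 0.055 at A_72_P444091).

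Slide 1 alone gave ESR1 -0.56, NR3C1 A_72_P444091 0.20, PAQR8 0.034, PPARGC1A -0.37, FYN 0.023 and SPP1 -0.84. Slide 2 alone gave IL2RG -0.018 and a coregulator median of -0.16, and averaging each gene's probes gave that median -0.12. Array weights, whose estimation stopped before it converged, gave PAQR8 0.11, EPOR -0.0046, IL7R 0.040, UPK1B -0.023 and SPP1 -0.0032. The cause of these shifts was not tested. With the looser call of a positive and significant signal, PGR was present on 1 array, and ESR1 on 2 (A_72_P077606), 1 (A_72_P441244) and 8 (A_72_P491067).

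With 1 array left out, log2 fold changes ran from -0.21 to 0.37 for ESR1 and from -0.22 to 0.15, -0.19 to 0.26 and -0.61 to 0.13 for NR3C1 (A_72_P035891, A_72_P444091, A_72_P464460). They ran from -0.28 to 1.82 for NR1I2, -0.34 to 0.069 for PAQR8, -0.11 to 0.062 for PGRMC2, -0.22 to 0.067 for NCOA1 and -0.24 to 0.14 for FYN. The class I cytokine receptor median ran from -0.098 to 0.16, its lowest without pregnant replicate 1. No PGRMC1 probe turned sign with any array left out.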
